A study of Arabidopsis thaliana with 12 samples.

Results

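The response of Arabidopsis thaliana shoots to the cytokinin trans-zeatin (tZ) was compared between wild type and a mutant of cytokinin signalling, as the difference of 2 differences. The tZ effect in the mutant (tZ minus DMSO) was taken, and the tZ effect in wild type was subtracted from it. This value is called the interaction here, in log2(signal + 10), and a negative interaction means that tZ raised a transcript less, or lowered it more, in the mutant. All 12 arrays of the series entered it, because the titles place each of them in 1 of 4 groups of 3 arrays. The groups were Col-0 wild type and the mutant, each sprayed for 1 h either with 20 µM tZ or with 0.02% DMSO, the solvent. Seedlings had grown for 2 weeks on Murashige and Skoog agar plates, and RNA came from their aerial parts. The source of the mutant arrays is given as SALK_098604 and SALK_054752, T-DNA insertion lines known for ARR10 and ARR12. The labels leave unsaid whether 1 plant carried both insertions, how many seedlings made 1 sample and whether the arrays of a group stand for separate cultures. The p-values therefore refer to the spread among these arrays, and that spread may be technical.

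Cytokinins are perceived by histidine kinase receptors that pass a phosphate, through carrier proteins, to response regulators. Type-B response regulators such as ARR10 and ARR12 bind DNA and activate transcription when phosphorylated, and the type-A response regulators are among the genes they switch on first. Type-A proteins lack the DNA-binding part and act as negative feedback on the pathway. Cytokinins are also known to raise enzymes that inactivate them, and to raise anthocyanin, the red and purple flavonoid pigment of leaves and stems.

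The 2 leaf and shoot markers measured read high, and so did 1 of 3 root markers. The Rubisco activase gene RCA read 4577 to 5685 over the 12 arrays and the antenna protein gene LHCB4.1 read 4365 to 5389. Of 3 root markers measured, the group means of PRX57 and EXPA7 lay below 11.2, the highest signal of 27 probe sets for bacterial genes that served as absent controls. PYK10, a beta-glucosidase gene strong in roots, read 483 to 1271, and the 3 root markers summed to 649 to 1106 in wild type with DMSO, 497 to 576 in wild type with tZ, 904 to 1275 in the mutant with DMSO and 504 to 747 in the mutant with tZ. The interaction of PYK10 was -0.19 (SE 0.26, limma adjusted p = 0.94). In the annotation used, neither ARR10 nor ARR12 names a probe set, so transcripts of the mutated genes were not analysed here.

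The tZ and DMSO arrays also differed as 2 sets in their technical controls: the ratio of 5' to 3' signal of actin, which falls when labelled RNA is short, was 0.252 to 0.328 on the 6 tZ arrays and 0.0409 to 0.0579 on the 6 DMSO arrays. Such an offset cancels in the interaction where it adds equally in both genotypes. The interaction of that ratio was -0.11 in log2 (exact permutation of the genotypes within each treatment, two-sided, p = 0.56, where 0.005 is the smallest p possible). For the ratios of GAPDH and ubiquitin, the cre spike-in, 25S rRNA and 5S rRNA it was -0.13, -0.091, -0.0043, -0.10 and 0.47, with exact p-values of 0.38 to 0.93 and adjusted values of 0.82 to 0.93 over the 6 measures. Within a treatment, 5' to 3' ratios could still separate the genotypes. With tZ the GAPDH ratio was 0.787, 0.827 and 0.837 in wild type and 0.704, 0.747 and 0.705 in the mutant. With DMSO the ubiquitin ratio was 0.198 to 0.206 in wild type and 0.216 to 0.227 in the mutant. The genotypes overlapped for GAPDH with DMSO, ubiquitin with tZ and actin with either. The part of this in the gene values was not tested. The value of 5S rRNA came from mutant tZ replicate 1, which read 104 against at most 33.1 on the other 11 arrays, and it was -0.15 without that array.

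For nearly all transcripts the effect of tZ did not differ detectably between the genotypes. Limma called 0 of 22746 probe sets at an adjusted p of 0.05 (percent called 0%), and the smallest adjusted p, 0.054, belonged to the type-A regulator ARR16. Before adjustment, 806 probe sets had a lower response in the mutant at p under 0.05 (3.54%) and 792 had a higher one (3.48%), 7.03% together. The interaction had a median of 0.0049 and ran from -0.60 to 0.64 between its percentiles 1 and 99, against a median SE of 0.19. The responses themselves were wider, with SDs over probe sets of 0.58 in wild type and 0.57 in the mutant, and 1977 and 1860 probe sets differed at least 2-fold between tZ and DMSO in the 2 genotypes.

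The width of the intervals sets what could have been missed. The 95% interval of the interaction reached 0.41 to either side in the median probe set, a 1.33-fold difference. It lay inside 2-fold in both directions for 20972 probe sets (92.2%) and inside 1.5-fold for 12087 (53.1%). Among the 15635 probe sets with at least 2 of 4 group means above the highest absent control, called detected from here on, those shares were 95.5% and 64.4%. For most detected probe sets the interval thus left out a difference of more than 2-fold between the 2 responses, while for many it held smaller ones. This is not the reach of the adjusted test. Of the detected probe sets, 10 lower and 11 higher had an interaction past 2-fold, and none of them was called. The wild type response itself had a median size of 0.43 among detected probe sets. For most of them even a full loss of the response would therefore be smaller than 2-fold. These intervals are also not adjusted for the number of probe sets.

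**Figure D1:**
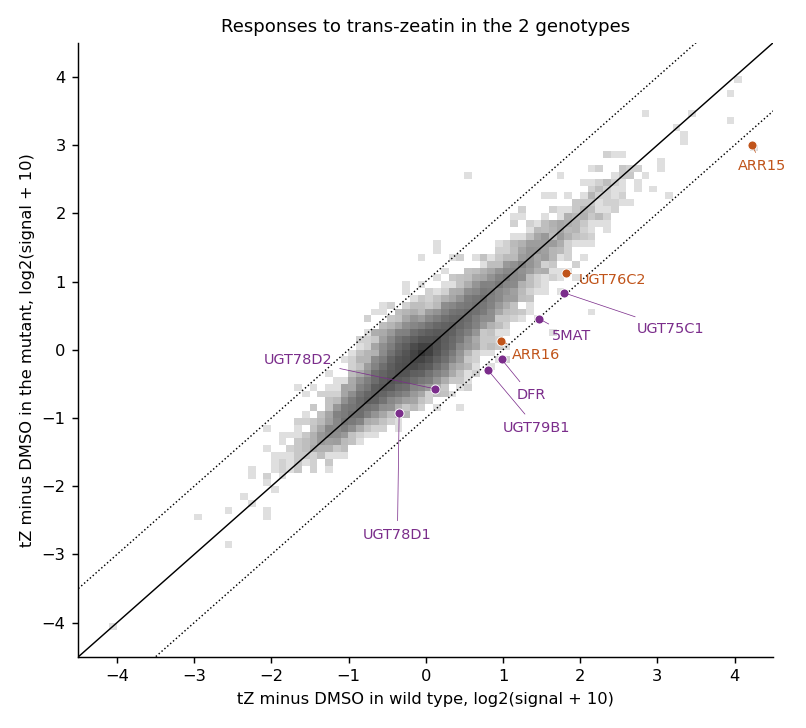
Response to tZ in wild type (x) and in the mutant (y), both as tZ minus DMSO in log2(signal + 10), for 22746 probe sets. Grey squares are darker where more probe sets fall, the solid line marks equal responses and the dotted lines a 2-fold difference. ARR15, ARR16 and UGT76C2 (orange) and 6 anthocyanin and flavonoid genes (purple) lie below the line of equal responses, and most probe sets lie close to it.

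At the extreme, lower responses outnumbered higher ones among detected probe sets. Of the 20 smallest p, 16 were lower in the mutant and 4 higher, and among the 16 of these that were detected the split was 15 to 1. At an unadjusted p under 0.001 there were 30 lower and 9 higher among the 15635 detected probe sets, and 33 and 17 among all 22746. At under 0.05 there were 626 and 511 among those detected, and 806 and 792 among all. With 1 array left out, the lower count among all ran from 656 to 928 (928 without wild type DMSO replicate 3). The higher count ran from 664 to 968 (968 without wild type DMSO replicate 1). A difference past 2-fold was found for 13 probe sets lower (0.0572%) and 17 higher (0.0747%), of which 10 and 11 were detected. Those counts depend on dim probe sets and on the offset added before the log, as described with the processing settings. Leaving out 1 array raised the higher count to 18 to 41 (41 without wild type DMSO replicate 1) and the lower one to 13 to 21 (21 without mutant DMSO replicate 1).

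The size of the common response was read as the mean of the 2 genotypes' responses, which in this balanced design shares no error with the interaction. Among 128 detected probe sets with a mean response above 2, wild type had a median of 2.30 and the mutant of 2.28. Among 991 with 1 to 2 it was 1.30 and 1.28, and among 701 with -2 to -1 it was -1.17 and -1.15. Risers (mean response of at least 1, 1119 probe sets) had a smaller response in the mutant in 53.3% of cases and fallers (at most -1, 712 probe sets) in 54.5%.

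Over all 15635 detected probe sets, 626 were lower in the mutant at an unadjusted p under 0.05 and 511 higher. Of the 1119 risers, 71 were lower at that p and 25 higher. Of the 712 fallers, 17 were lower and 43 higher, so that in both classes the smaller response was more often the mutant's. In the class above 2 the shares were 10.9% lower (14 of 128) and 4.69% higher (6), beside 3.75% and 2.87% in the class from -0.5 to 0.5. One array carried much of this for the risers: without mutant DMSO replicate 1, 61 risers were lower and 65 higher, and 45.4% of risers had a smaller response in the mutant. Without wild type tZ replicate 1 they were 53 and 19. Among fallers the lower count was 10 without mutant tZ replicate 3 and 28 without wild type tZ replicate 2, and the higher count was 28 without mutant tZ replicate 2. The share of fallers with a smaller response in the mutant was 49.7% without mutant DMSO replicate 1, against 54.5% with all arrays.

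**Figure D2:**
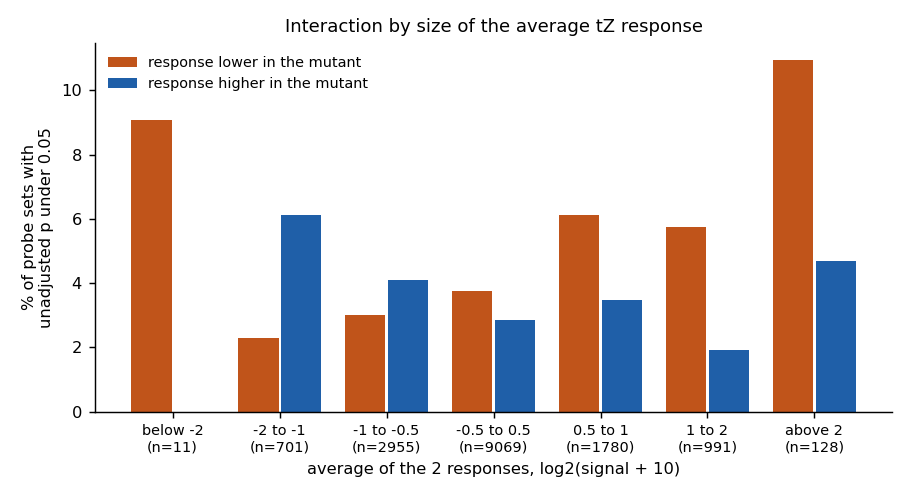
Share of detected probe sets (y, percent) with an unadjusted interaction p under 0.05, in 7 classes of the mean tZ response of both genotypes (x, log2(signal + 10)). Orange bars count responses lower in the mutant and blue bars higher ones, and the number of probe sets stands under each class. Orange exceeds blue in the classes that rose and blue exceeds orange from -2 to -0.5, while the class below -2 holds 11 probe sets.

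The type-A response regulators measured by name, ARR15 and ARR16, had the smallest 2 p-values of all probe sets. Both had a smaller response in the mutant, and they differed in how much of it was left. ARR15 rose in both genotypes and to a lower level in the mutant, whereas ARR16 rose in wild type alone by the test.

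ARR16 read 87.0, 85.3 and 84.3 on the wild type DMSO arrays and 173, 178 and 183 on the wild type tZ arrays. In the mutant it read 99.8, 91.9 and 86.3 with DMSO and 111, 97.1 and 97.0 with tZ. All wild type tZ arrays stood apart from the other 9, and in the mutant the 2 treatments overlapped. Over all pairings of a tZ array with a DMSO array the wild type response ran from 0.92 to 1.04 and the mutant response from -0.04 to 0.33. The interaction was -0.86 (SE 0.11, 95% interval -1.09 to -0.62, limma adjusted p = 0.054), made of a difference between genotypes of -0.75 with tZ and 0.10 with DMSO. It missed the threshold in the setting used here and passed in 7 of 22 alternatives, among them the fit without mutant tZ replicate 1 (limma adjusted p = 0.048, range over alternatives 0.021 to 0.33).

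ARR15 read 16.0, 18.9 and 9.10 with DMSO and 487, 407 and 446 with tZ in wild type. In the mutant it read 8.91, 13.7 and 10.9 with DMSO and 164, 154 and 156 with tZ. The mutant tZ arrays lay far above both DMSO groups and far below every wild type tZ array. The interaction was -1.23 (SE 0.20, 95% interval -1.65 to -0.80, limma adjusted p = 0.18). Its DMSO signals lie near the absent controls, so the fold of each response is not known exactly, and the difference comes from the tZ arrays, where the mutant was lower by -1.44 against -0.21 with DMSO. It passed in 1 of 22 alternatives, with a pseudocount of 50 (limma adjusted p = 0.0011, range 0.0011 to 0.49). The 2 measured type-B regulators, ARR18 and ARR19, had all group means below the highest absent control, so no interaction can be read for them.

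**Figure D3:**
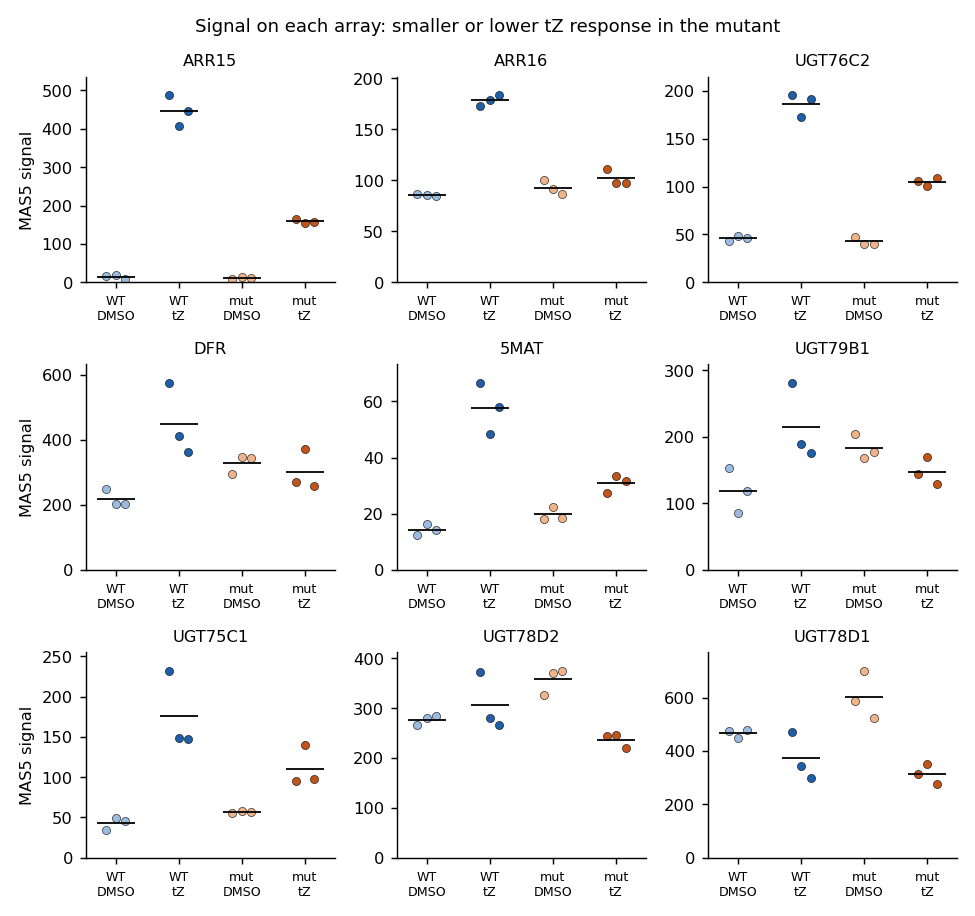
MAS5 signal (y, linear, from 0) on each of the 12 arrays for 9 genes with a lower tZ response in the mutant. Points are arrays in the 4 groups (WT, wild type; mut, mutant) and bars are means of 3 arrays. For ARR15, ARR16 and UGT76C2 the difference lies in the tZ groups, while for the anthocyanin and flavonoid genes the mutant is also higher than wild type with DMSO.

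The other genes known as cytokinin-induced gave a graded picture. All 4 measured members rose with tZ in both genotypes by limma, and all 4 had a negative interaction, with a median of -0.51 against 0.0049 over all probe sets. Which genes are listed matters here, as the member GRXS6 is a CC-type glutaredoxin. The 8 measured genes of that family, described below, had median responses of 0.69 in wild type and 0.98 in the mutant. Of their interactions 4 were negative and 4 positive, with a median of 0.14. UGT76C2, which inactivates cytokinins by adding glucose to a ring nitrogen, read 43.0, 47.9 and 46.5 with DMSO and 195, 172 and 192 with tZ in wild type. In the mutant it read 47.6, 40.1 and 40.4 with DMSO and 106, 100 and 109 with tZ. The DMSO groups overlapped and the tZ groups were far apart, giving an interaction of -0.69 (SE 0.12, limma adjusted p = 0.27).

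AT2G40230 had an interaction of -0.59 (SE 0.24), the glutaredoxin gene GRXS6 (AT3G62930) of -0.44 (SE 0.37) and the transcription factor gene TINY2 of -0.15 (SE 0.23), with adjusted p-values of 0.66 to 0.94. Thus 2 of 4 reached an unadjusted p under 0.05 in the lower direction, beside 3.54% of all probe sets, and TINY2 differed by less than its SE. Both DMSO group means of GRXS6 lay below the highest absent control, so its responses are set against background, and its interaction was -0.15 when wild type DMSO replicate 1 was left out and -0.75 when replicate 3 of that group was. The median was -0.28 without wild type DMSO replicate 1, and 1 of 4 reached that p without each of 5 arrays (wild type tZ replicates 1 and 2, mutant tZ replicate 3, wild type DMSO replicate 1 and mutant DMSO replicate 3). UGT76C1, a close relative of UGT76C2 with the same activity, fell with tZ by 0.40 in wild type and by 0.47 in the mutant and had an interaction of -0.07.

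Genes of anthocyanin and flavonol synthesis had lower responses in the mutant in most members. Of 7 measured genes, 6 were detected and all 6 had a lower tZ response in the mutant at an unadjusted p under 0.05, beside 3.54% of all probe sets. The median interaction of the 7 was -0.96. The median tZ response of wild type was 0.81, and that of the mutant was -0.15. Unlike the type-A regulators, these genes leaned on both sides in their medians: the mutant was lower by a median of -0.49 with tZ and higher by 0.35 with DMSO. Neither side passed by limma for DFR, 5MAT, UGT79B1 or UGT78D2. Their adjusted p-values were 0.12 to 0.73 with tZ and 0.27 to 0.52 with DMSO. No interaction passed singly by limma over all probe sets, with adjusted p-values of 0.28 to 0.59 for the detected 6.

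DFR encodes dihydroflavonol reductase, the enzyme that commits flavonoids to anthocyanin. It read 248, 204 and 204 with DMSO and 574, 410 and 362 with tZ in wild type, and 295, 348 and 343 with DMSO and 269, 373 and 258 with tZ in the mutant. In wild type the treatments were separate, and in the mutant they overlapped, with 5 of 6 arrays between the wild type groups. The interaction was -1.13 (SE 0.23, limma adjusted p = 0.28).

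The malonyltransferase gene 5MAT, which decorates finished anthocyanins, read 12.4, 16.3 and 14.4 with DMSO and 66.6, 48.3 and 58.0 with tZ in wild type. In the mutant it read 18.3, 22.4 and 18.6 with DMSO and 27.3, 33.4 and 31.7 with tZ. The treatments were separate in both genotypes, and the mutant groups lay between the wild type ones, with an interaction of -1.01 (SE 0.19, limma adjusted p = 0.28).

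Sugar-adding enzymes of the same pathway followed. UGT79B1, which adds xylose to anthocyanins, read 153, 85.9 and 119 with DMSO and 281, 189 and 176 with tZ in wild type, and 205, 169 and 177 with DMSO and 144, 170 and 130 with tZ in the mutant. UGT75C1 (AT4G14090), which glucosylates anthocyanins at the 5 position, read 34.1, 49.8 and 45.7 with DMSO and 232, 149 and 148 with tZ in wild type, and 55.6, 58.0 and 56.8 with DMSO and 94.8, 139 and 97.9 with tZ in the mutant. For both, every wild type tZ array exceeded every mutant tZ array and every mutant DMSO array exceeded every wild type DMSO array. Their interactions were -1.10 (SE 0.27) and -0.96 (SE 0.25).

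UGT78D2, a 3-O-glucosyltransferase of flavonols and anthocyanidins, did not pass between treatments in wild type (0.12, limma adjusted p = 0.38) and fell by 0.57 in the mutant (adjusted p = 4.3e-04), with an interaction of -0.70 (SE 0.15). UGT78D1, which adds rhamnose to flavonols, differed by -0.35 in wild type (adjusted p = 0.070) and fell by 0.92 in the mutant (adjusted p = 1.2e-04), with an interaction of -0.58 (SE 0.20). UGT78D3, which adds arabinose to flavonols, lay below the highest absent control in every group, and its interaction was -0.06.

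Responses of 5 of the 7 genes did not overlap between the genotypes in any pairing of arrays, where 1.53% of all probe sets did not overlap in that direction and 1.39% did not in the other. UGT78D1 overlapped. Wild type tZ replicate 1 was the highest array of its group for all 6 detected genes, and without it the interactions were -0.94 for DFR, -0.92 for 5MAT, -0.91 for UGT79B1, -0.75 for UGT75C1, -0.55 for UGT78D2 and -0.39 for UGT78D1. The count of 6 at an unadjusted p under 0.05 was the same without each of the 12 arrays. The genes share arrays and a pathway and vary together, so they are not 6 separate results.

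AT1G23390, chosen after its values were seen, is known to encode an F-box protein that targets chalcone synthase, the first enzyme of flavonoid synthesis, for breakdown. It read 473, 488 and 440 with DMSO and 96.4, 111 and 117 with tZ in wild type, and 403, 329 and 325 with DMSO and 103, 165 and 222 with tZ in the mutant. It fell in both genotypes, by 2.02 and by 1.12, and the 2 tZ groups overlapped through mutant tZ replicate 1. The interaction was 0.90 (SE 0.27, limma adjusted p = 0.51), opposite in sign to that of the synthesis genes.

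Among the 51 genes with a UGT symbol in the annotation, the family of UDP-glycosyltransferases, 6 had an unadjusted p under 0.05 in the lower direction and 0 in the higher one (3.54% and 3.48% of all probe sets), while the family's median of -0.06 was near that of all probe sets. Of the 6, UGT76C2, UGT79B1, UGT78D2 and UGT78D1 are described above, while UGT75C1 has no UGT symbol in the annotation and is not counted here. UGT84A3, which glucosylates hydroxycinnamic acids, was another, at 25.7, 22.9 and 32.5 with DMSO and 69.6, 62.3 and 64.7 with tZ in wild type and 38.2, 34.3 and 40.2 with DMSO and 52.7, 51.2 and 53.4 with tZ in the mutant. The order of its groups was that of 5MAT, with the mutant between the wild type groups, and its interaction was -0.64 (SE 0.16). The remaining one, UGT84A1, lay below the highest absent control in all group means. The lower count was 9 when wild type DMSO replicate 3 or mutant DMSO replicate 1 was left out, and 6 to 8 for each of the others.

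Of 13 glutathione transferases 3 reached that p in the lower direction and 0 in the higher one, again beside 3.54% and 3.48% of all probe sets. GSTU20, a strongly induced member, rose from 595, 595 and 569 to 2045, 1642 and 1867 in wild type and from 766, 658 and 674 to 1799, 1676 and 1798 in the mutant. The tZ groups overlapped and the mutant was higher with DMSO, so its interaction of -0.32 (SE 0.12) arose on the DMSO side. GSTU16 fell in both genotypes, more in the mutant, with an interaction of -0.37 (SE 0.13), and GSTU22 was not detected. The count was 2 without mutant tZ replicate 2 or wild type DMSO replicate 2.

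Several further genes had a lower response in the mutant by the same measure. XTH32, an enzyme that remodels cell wall xyloglucan, read 234, 241 and 231 with DMSO and 342, 300 and 326 with tZ in wild type, and 253, 249 and 295 with DMSO and 242, 261 and 225 with tZ in the mutant. It rose in wild type and its treatments overlapped in the mutant, with an interaction of -0.57 (SE 0.11, limma adjusted p = 0.28). AT3G21670, the nitrate transporter NPF6.4, rose by 0.64 in wild type and had a value of -0.21 in the mutant, with an interaction of -0.85 (SE 0.20, adjusted p = 0.41). AT1G28600 rose by 0.96 and by 0.33 (interaction -0.63, SE 0.13).

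In AT4G29700 and in SPCH, which starts the stomatal lineage, tZ and DMSO arrays separated in opposite order in the 2 genotypes. AT4G29700 read 38.6, 27.9 and 27.7 with DMSO and 52.2, 48.9 and 46.0 with tZ in wild type, and 67.2, 49.0 and 61.6 with DMSO and 44.5, 46.6 and 47.6 with tZ in the mutant. The tZ groups overlapped and the DMSO groups were separate, so that its interaction of -0.81 (SE 0.18, limma adjusted p = 0.39) came from 0.74 with DMSO and -0.07 with tZ. SPCH read 41.8, 48.3 and 50.2 with DMSO and 67.0, 56.6 and 50.9 with tZ in wild type, and 51.6, 54.1 and 51.3 with DMSO and 44.8, 42.3 and 46.6 with tZ in the mutant (interaction -0.45, SE 0.15, adjusted p = 0.57). Groups separated in this way, up in wild type and down in the mutant, in 28 probe sets (0.123%), and the other way in 29 (0.127%).

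The widest negative values among named detected genes included dim ones. AT2G15560 had an interaction of -1.29 (SE 0.31) and AT2G16890 of -1.15 (SE 0.32), with adjusted p-values of 0.43 and 0.47, and some of their group means lay below the highest absent control.

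Genes with a more positive response in the mutant had larger p-values than the leading lower ones. The 3 smallest p in this direction among detected probe sets that name 1 gene belonged to AT5G14105, AT3G53470 and AT4G24930. AT5G14105 read 67.1, 73.0 and 74.8 with DMSO and 89.8, 93.6 and 89.7 with tZ in wild type, and 50.5, 50.4 and 46.0 with DMSO and 96.5, 91.6 and 96.6 with tZ in the mutant. The tZ groups overlapped and every mutant DMSO array lay below every wild type one, giving an interaction of 0.52 (SE 0.11, limma adjusted p = 0.34), with -0.47 on the DMSO side and 0.05 on the tZ side.

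AT4G24930, known as a protein of the thylakoid lumen, rose from 126, 97.5 and 123 to 291, 293 and 312 in wild type and from 86.0, 83.2 and 76.4 to 334, 349 and 301 in the mutant. Here too the tZ groups overlapped and the DMSO groups did not (interaction 0.57, SE 0.13, limma adjusted p = 0.40). AT3G53470 rose by 0.34 in wild type and by 0.84 in the mutant, with differences between genotypes of 0.30 with tZ and -0.20 with DMSO (interaction 0.50, SE 0.11).

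Some genes fell less in the mutant. VPS22, a subunit of the ESCRT complex that sorts membrane proteins for breakdown, fell from 320, 313 and 301 to 94.5, 98.0 and 91.1 in wild type and from 295, 295 and 260 to 117, 124 and 109 in the mutant. The tZ groups were separate, and so were the DMSO groups, in opposite order (interaction 0.41, SE 0.10, limma adjusted p = 0.43). AT2G31810, known as a small subunit of acetolactate synthase in branched-chain amino acid synthesis, fell by 1.22 and by 0.75 (interaction 0.46, SE 0.11), and AT5G42680 by 1.21 and by 0.55 (interaction 0.66, SE 0.16).

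AT5G02650, AT4G28240, AT1G67860 and AT5G16650 made up the rest of the 10 smallest p in this direction, with interactions of 0.74, 0.49, 0.39 and 0.37 and adjusted p-values of 0.43. In AT5G16650 the directions were opposite, from 151, 158 and 148 to 137, 143 and 137 in wild type and from 141, 131 and 141 to 158, 164 and 176 in the mutant. The groups separated in both genotypes. The widest values among named detected genes were 1.22 for AT4G23720, 0.96 for GRXS4, 0.95 for AT1G56300, 0.92 for NDB3 and 0.91 for COR27, with SEs of 0.32 to 0.45 and limma adjusted p-values of 0.43 to 0.71. The responses of the genotypes overlapped in 4 of these and were separate in AT4G23720, a dim gene.

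**Figure D4:**
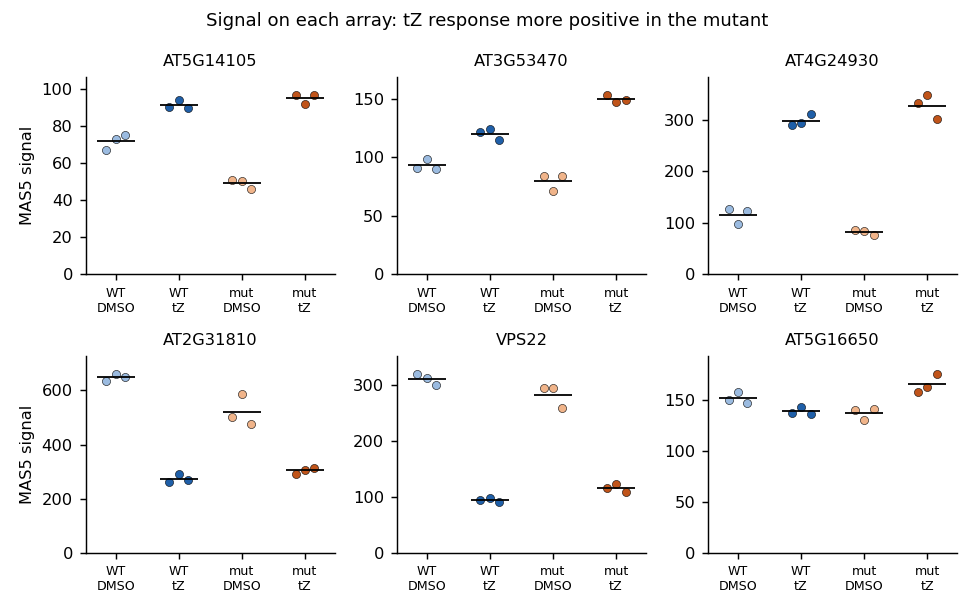
MAS5 signal (y, linear, from 0) on each of the 12 arrays for 6 genes with a more positive tZ response in the mutant. Points are arrays in the 4 groups (WT, wild type; mut, mutant) and bars are means of 3 arrays. In AT5G14105 and AT4G24930 the tZ groups of the genotypes overlap and the mutant is lower with DMSO.

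An interaction can lie on the tZ side, on the DMSO side or on both. In the 2 type-A regulators and UGT76C2 the difference between the genotypes was -1.44, -0.75 and -0.77 with tZ, and -0.21, 0.10 and -0.08 with DMSO. The contrast between the genotypes with tZ, from the same limma fit of 12 arrays, passed for these 3, with adjusted p-values of 4.4e-04, 7.1e-04 and 0.0019, among 8 called probe sets (0.0352%). In the contrast with DMSO 3 probe sets were called (0.0132%), none of them named. In the responses by genotype 43.6% of probe sets were called in wild type and 42.8% in the mutant, counts that hold the array sets as well as the treatment.

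Plastid-encoded genes, which code for photosynthesis subunits and the plastid's own gene expression, leaned slightly to the lower side. Of 69 measured, 50 had a negative interaction (72.5%), where 49.0% of all probe sets did, and the median was -0.14. The median difference between mutant and wild type was 0.17 with DMSO and 0.019 with tZ. At an unadjusted p under 0.05, 11 were lower and 1 was higher, where 3.54% and 3.48% of all probe sets were. NdhJ of the NADH dehydrogenase-like complex read 526, 585 and 567 with DMSO and 610, 659 and 560 with tZ in wild type, and 669, 697 and 709 with DMSO and 531, 536 and 625 with tZ in the mutant. Its treatments overlapped in wild type and were separate in the mutant, with an interaction of -0.41 (SE 0.11, limma adjusted p = 0.43).

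The photosystem I genes psaI and psaJ had interactions of -0.33 (SE 0.09) and -0.58 (SE 0.17), while rpoA, a subunit of the plastid RNA polymerase, had 0.34 (SE 0.13). Single arrays moved the shift without turning its sign. The median was -0.23 without mutant tZ replicate 1, -0.05 without mutant tZ replicate 3 and -0.06 without wild type tZ replicate 1, and leaving out wild type DMSO replicate 1 gave a lower count of 7 and leaving out replicate 3 of that group gave 19. The transcripts of 1 organelle vary together, and mutant tZ replicate 1, which stood apart in 5S rRNA, also read 400 for ndhG against 118 and 102 on the others. The part of RNA quality in these values was not tested.

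For the lists that follow, the shares of all probe sets at that p are 3.54% lower and 3.48% higher, and a count of 0 or 1 in a list of this size lies near them. The 23 mitochondrially encoded genes had a median of -0.11 with 1 lower and 0 higher at that p. Of these 23 genes, 17 had a negative interaction (73.9%), a share close to that of the plastid-encoded genes. Their median was -0.058 without wild type DMSO replicate 1 and -0.22 without mutant DMSO replicate 1. The 5 genes of light harvesting and chlorophyll synthesis had a median of -0.015 with 0 in either direction, and 0.056 without mutant tZ replicate 1. None of 25 genes of ubiquitin conjugation and removal and none of 15 tetraspanins reached it by limma. Of 19 expansins 1 was lower and 1 higher, and EXPA4, a wall-loosening protein gene that rose in both genotypes, had an interaction of -0.24 (SE 0.17). Of 44 AGAMOUS-like MADS-box genes 1 was lower and 4 were higher, and 9 of the 44 were detected.

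Among 12 auxin response genes GH3.9 alone reached it, at 0.51 (SE 0.18). The nitrate response repressors HHO3 (AT1G25550) and HHO2 (AT1G68670) had 0.35 (SE 0.15) and 0.43 (SE 0.20), the latter 0.24 without mutant tZ replicate 2, and the fructose transporter gene SWEET17 had 0.28 (SE 0.09). CML30, a calmodulin-like protein gene, read 53.6, 51.2 and 59.2 with DMSO and 63.7, 53.4 and 50.3 with tZ in wild type, and 41.5, 30.0 and 29.6 with DMSO and 69.8, 51.0 and 61.8 with tZ in the mutant. Its treatments overlapped in wild type and were separate in the mutant, through lower DMSO values there (interaction 0.68, SE 0.19, limma adjusted p = 0.48).

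The 8 CC-type glutaredoxins, small redox proteins tied to nitrate and cytokinin responses, went both ways. GRX480 had an interaction of -0.92 (SE 0.33), GRXS4 (AT4G15680) of 0.96 (SE 0.45) and GRXS8 (AT4G15660) of 0.74 (SE 0.34). Without mutant tZ replicate 3 the value of GRXS4 was 0.58, and without wild type DMSO replicate 2 that of GRXS8 was 0.42. GRXS4 and GRXS8 are paralogs of similar sequence, so their signals may mix, and GRXS8 lay below the highest absent control with DMSO. The defensin gene PDF1.2b spread widely within groups, from 340 to 1484 in wild type with tZ and from 273 to 2033 in the mutant with tZ. Its interaction was 0.44 (SE 0.89) and -0.32 without mutant tZ replicate 1.

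**Figure D5:**
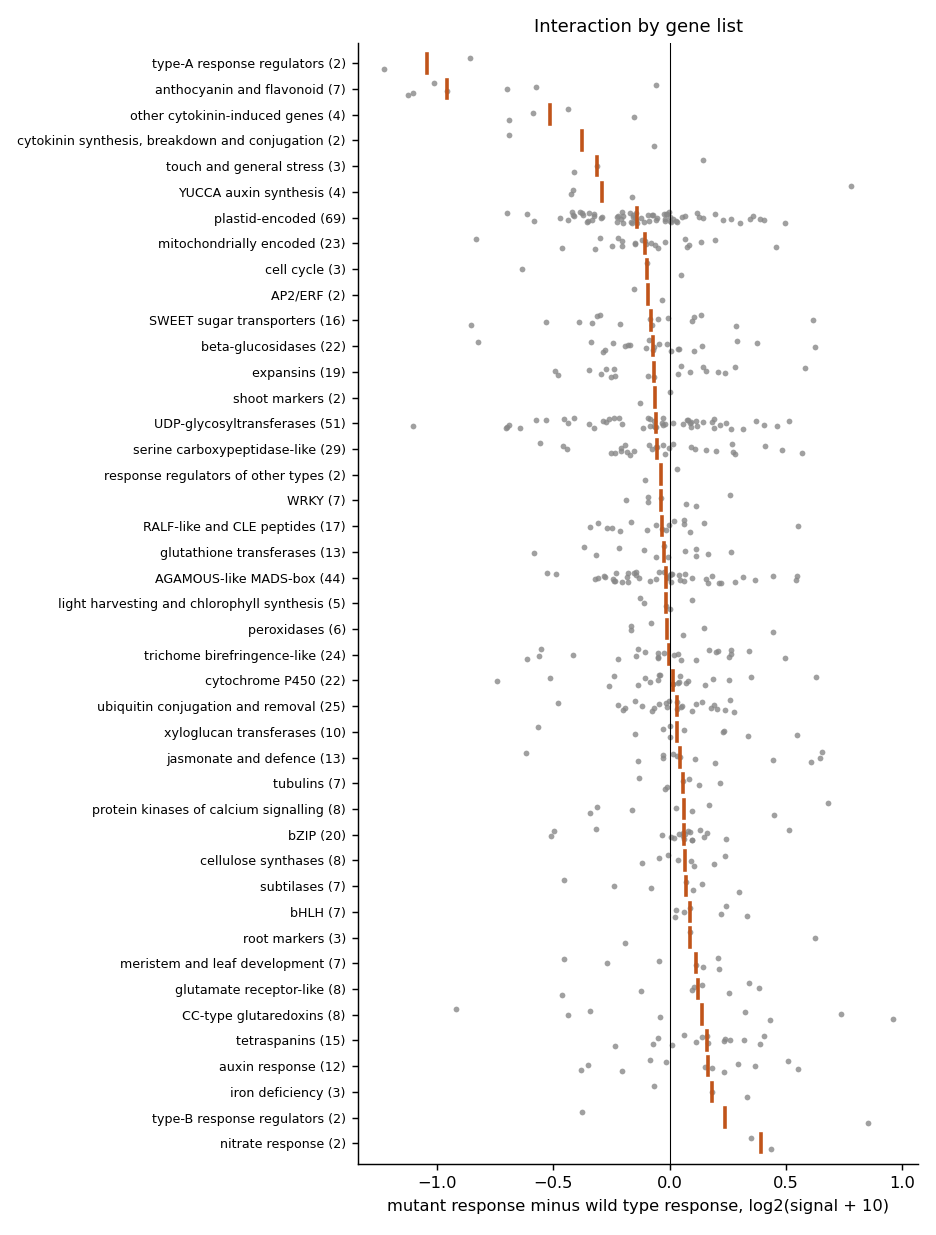
Interaction (x, mutant response minus wild type response in log2(signal + 10)) of each measured gene in all 43 lists with at least 2 measured genes (y, number of genes in brackets), ordered by median. Points are genes and orange bars are list medians, from -1.04 in type-A regulators, -0.96 in anthocyanin and flavonoid genes and -0.51 in other cytokinin-induced genes to 0.39 in nitrate response, and several lists with wide medians hold 2 to 4 genes.

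Unnamed probe sets stood among the smallest p as well. Probe set 253245_at read 251, 257 and 252 with DMSO and 729, 642 and 666 with tZ in wild type, and 200, 220 and 191 with DMSO and 381, 367 and 361 with tZ in the mutant. Every mutant array lay below every wild type array of the same treatment, and the gap was wider with tZ (interaction -0.56, SE 0.09, limma adjusted p = 0.21). Probe set 252618_at, one of the brightest with a low p, read 1557, 1454 and 1418 with DMSO and 2071, 1944 and 1927 with tZ in wild type, and 1957, 1896 and 1845 with DMSO and 1798, 1717 and 1734 with tZ in the mutant. It rose in wild type, where the groups were separate, and the mutant groups were separate the other way (interaction -0.54, SE 0.09, adjusted p = 0.18). AT2G06470, annotated as a pseudogene, had an interaction of -0.99 with every group mean below the highest absent control.

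A further 3 probe sets are given outside the naming rule, picked with their values in view. Probe set 265091_s_at, which names several genes, read 70.0, 56.3 and 53.3 with DMSO and 276, 172 and 189 with tZ in wild type, and 107, 92.9 and 110 with DMSO and 120, 161 and 107 with tZ in the mutant. All its mutant arrays lay between the wild type groups, with an interaction of -1.37 (SE 0.24, limma adjusted p = 0.22). Probe set 261901_at read 140, 160 and 142 with DMSO and 178, 190 and 183 with tZ in wild type, and 134, 85.1 and 99.3 with DMSO and 267, 243 and 345 with tZ in the mutant, the reverse order, with an interaction of 1.05 (SE 0.20, adjusted p = 0.28).

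Probe set 266385_at had the most positive interaction of all, 2.02 (SE 0.76, limma adjusted p = 0.62). It read 46.2, 43.2 and 83.4 with DMSO and 41.9, 305 and 44.0 with tZ in wild type, and 35.4, 72.9 and 75.8 with DMSO and 537, 400 and 296 with tZ in the mutant. Wild type tZ replicate 2 read like the mutant tZ arrays and the other wild type tZ arrays like the DMSO arrays. Its interaction ran from 1.58 to 2.88 with 1 array left out.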

How the data were processed

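Affymetrix ATH1 arrays measured 12 samples, 3 in each of 4 groups taken from the titles. The authors deposited 1 linear intensity per probe set and array, computed with MAS5 per the submitters' processing notes, and its version and scaling are not given in the sources used here. Of 22810 probe sets, 64 controls were left out and 22746 tested. Signals were used as log2(signal + 10) with no further normalization (array medians 33.8 to 35.7). Limma 3.58.1 in R 4.3.3 fitted 1 mean per group, with the interaction as a contrast, a trended variance prior and Benjamini-Hochberg adjustment over all probe sets. The number of arrays limits the precision. In simulated data 200 interactions were changed, all in probe sets whose mean log2(signal + 10) lay above the median of the 22746. Of these, 32.5% were recovered at 1.5-fold, 85% at 2-fold and 99.5% at 4-fold, with 6, 7 and 9 false calls. An adjusted p depends on how many probe sets change, so these shares hold for 200 changed at once. They need not hold for the data, where no interaction was called. Recovery among dimmer probe sets or with fewer changed was not simulated. Genotype labels of control measures were permuted exactly within treatment over 400 arrangements.

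The platform annotation gave 1 gene for 13513 probe sets, several for 503 and none for 8730, and 13436 matched a locus of TAIR10.1. Different probe sets of a gene were kept apart. Named genes were all measured type-A and type-B regulators, the 10 smallest p and the 5 widest values in each direction among detected probe sets with 1 gene, the 5 smallest p of all, and up to 3 detected members per list. Other members of the anthocyanin, UGT, glutathione transferase and plastid lists, ndhG, EXPA4, AT1G23390, PRX57, EXPA7 and 3 unnamed probe sets are given outside that rule. The comparison and the 54 lists, of which 48 had measured genes, were chosen with earlier results of these data known, and some list patterns were repaired after the files were read.

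Replicate numbers do not pair the samples: correlations of deviations from group means between arrays of the same number were -0.085 to 0.069. The 22 alternatives changed the pseudocount, scaling, filter, variance prior, array weights or block, or left out 1 array. Promoter sequences were not used here.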

Additional observations from a re-analysis of the deposited data

Results flagged for a closer look

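In 5 named probe sets the tZ and DMSO arrays separated fully in both genotypes and in opposite order, while the limma test of the difference passed in none of them after adjustment. Higher with tZ in wild type and lower in the mutant were AT4G29700, with an interaction of -0.81, SPCH with -0.45, the probe set 252618_at with -0.54 and AT2G06470 with -0.99, the last with every group mean below the highest absent control. AT5G16650 ran the other way, with 0.37. Over all probe sets 28 separated in the first order (0.123%) and 29 in the second (0.127%).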

How the results depend on the processing

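The number of probe sets called for the interaction, 0 as reported, was 1 (ARR16) with a pseudocount of 1, quantile normalization, the dimmest 40% left out, the filter for detected probe sets or a robust variance prior, 2 (with ARR15) with a pseudocount of 50, and 0 to 1 with 1 array left out. The block on replicate number, which does not pair these samples, gave 0. Past 2-fold there were 806 lower and 1043 higher with a pseudocount of 1, 2 lower and 2 higher with 50, 5 higher without the dimmest 40% and 11 higher among detected probe sets, and with 1 array left out 13 to 21 lower and 18 to 41 higher. At an unadjusted p under 0.05 the higher count was 459 without the dimmest 40% and 518 when only detected probe sets were fitted, where fewer were tested. Among the genes whose interaction is printed, some turned sign. Of those near 0, UGT78D3 was 0.082, 0.010, 0.038 and 0.052 without wild type tZ replicate 2, mutant tZ replicate 2, wild type DMSO replicate 2 and mutant DMSO replicate 1 (range -0.22 to 0.082). UGT76C1 was 0.0056 and 0.030 without mutant tZ replicate 2 and wild type DMSO replicate 3 (range -0.15 to 0.030). PDF1.2b, at 0.44 with an SE of 0.89, was -0.32 without mutant tZ replicate 1 (range -0.32 to 1.12). The causes of the other changes were not tested. Over the genes recomputed, which leave out members described by counts alone, 1466 values stayed on the same side of the threshold and 8 were newly past it. Signals near the absent controls limit what dim probe sets can show.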
